A study of Mus musculus with 8 samples.

Results

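The core circadian clock is described here through 10 genes, 3 that encode its activators (*Arntl*, *Clock* and *Npas2*) and 7 that encode its repressors (*Per1*, *Per2*, *Per3*, *Cry1*, *Cry2*, *Nr1d1* and *Nr1d2*). They were found by symbol among the 16540 genes of the liver count table, and all 10 were among the 12307 genes with enough counts to be tested. The liver RNA came from *Apoe*-/- mice, which lack apolipoprotein E and develop high plasma cholesterol, and all of them were given a diet that the labels call Western and the methods describe as high in cholesterol. In 4 mice, ISOGK (isoginkgetin, a plant biflavonoid) was given by intraperitoneal injection for 8 weeks at a daily dose of 20 mg/kg, and 4 mice received vehicle. The ages of the mice and the hour at which the livers were taken are not given in the sources used here. The study treated male and female mice, and its text does not state the sex of those sequenced.

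In liver, as in other tissues, BMAL1 (the product of *Arntl*) pairs with CLOCK or NPAS2 and switches on genes that carry E-box sequences, among them the *Per*, *Cry* and *Nr1d* genes. PER and CRY proteins return to block that pair, and the REV-ERB proteins, encoded by *Nr1d1* and *Nr1d2*, repress *Arntl*, *Npas2* and *Cry1* through response elements they share with the ROR receptors. The transcripts of most of these genes rise and fall every day, with *Arntl* and *Npas2* high when *Nr1d1* is low, so a liver sampled once gives a single point of that cycle and neither its phase nor its amplitude. Proline- and acid-rich bZIP factors (DBP, TEF and HLF) add a further limb, acting on D-box sequences where NFIL3 opposes them.

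Mouse promoter sequences from RefSeq (GRCm38.p6, 250 bases before and 50 after a start) were available for 9 of the 10 genes, and *Per2* had none. Letters searched on both strands were CACGTG (E-box), CACGTT (an E-box variant, AACGTG on the other strand), TTATGTAA or TTACGTAA (D-box) and AGGTCA (the half-site of REV-ERB and ROR elements). The sequences below are shown because the clock genes are grouped by these elements, and capitals mark the E-box, E-box variant and D-box letters, or the half-site for *Arntl*. They are written 5′ to 3′ on the strand of the gene: *Per1* from chr11:69098699-69098948 (+), *Per3* from chr4:151044666-151044915 (-), *Cry1* from chr10:85185055-85185304 (-), *Nr1d1* from chr11:98775378-98775627 (-) and a short stretch of *Arntl* from chr7:113207530-113207559 (+).
Per1: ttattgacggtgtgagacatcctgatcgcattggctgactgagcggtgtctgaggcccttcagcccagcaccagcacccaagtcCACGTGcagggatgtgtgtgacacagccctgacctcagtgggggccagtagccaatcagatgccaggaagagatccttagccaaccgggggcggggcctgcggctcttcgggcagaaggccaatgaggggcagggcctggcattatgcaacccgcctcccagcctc
Per3: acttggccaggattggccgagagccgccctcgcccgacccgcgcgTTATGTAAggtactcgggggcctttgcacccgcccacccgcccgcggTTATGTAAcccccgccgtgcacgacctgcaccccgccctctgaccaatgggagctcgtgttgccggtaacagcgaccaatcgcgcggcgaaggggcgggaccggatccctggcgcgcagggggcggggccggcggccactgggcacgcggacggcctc
Cry1: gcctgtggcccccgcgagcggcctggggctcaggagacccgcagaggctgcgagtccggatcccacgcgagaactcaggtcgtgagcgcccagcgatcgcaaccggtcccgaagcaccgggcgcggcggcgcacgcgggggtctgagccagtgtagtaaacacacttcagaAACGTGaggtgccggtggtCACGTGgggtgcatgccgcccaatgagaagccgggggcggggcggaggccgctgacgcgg
Nr1d1: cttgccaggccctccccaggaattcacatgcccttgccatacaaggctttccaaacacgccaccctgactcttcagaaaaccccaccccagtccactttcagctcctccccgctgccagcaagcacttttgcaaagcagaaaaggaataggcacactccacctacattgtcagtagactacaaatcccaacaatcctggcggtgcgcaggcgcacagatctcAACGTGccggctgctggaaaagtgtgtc
Arntl: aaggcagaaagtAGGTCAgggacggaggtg

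*Per3* held TTATGTAA at 205 and at 158 bases before its start, and D-box letters were found in 1.06% of all 32851 windows. The E-box CACGTG stood 166 bases before a start of *Per1* and 60 bases before that of *Cry1*, and 7.15% of windows held it. That *Per1* window lies inside the gene span given below, and the other *Per1* window, from chr11:69099902, held no E-box. The variant was found 79 bases before the start of *Cry1*, 166 bases before that of *Cry2* and 28 bases before that of *Nr1d1*, against 4.68% of windows. AGGTCA, present in 16.3% of windows, was found in windows of *Arntl*, *Clock*, *Per1* and *Nr1d2*. *Arntl*, *Clock* and *Per1* each had further windows, at other starts, that did not hold it. These are matches of letters in a short window, and many elements of the clock genes lie outside it.

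Library totals ran from 17457106 to 24461854 counts, and those of the groups overlapped. The summed level of hepatocyte markers overlapped between the groups (150100 to 162500 CPM with vehicle and 138700 to 173300 CPM with ISOGK, where CPM are counts scaled to a common library size), as did those of endothelial, stellate and lymphocyte markers. The 5 Kupffer cell markers summed to 905 to 1066 CPM with vehicle and 719 to 916 CPM with ISOGK, with 916 CPM in ISOGK mouse 1 and 0 of 5 called by edgeR. The 5 cholangiocyte markers summed to 27.5 to 34.8 CPM and 28.2 to 69.0 CPM, with 1 called higher. Skeletal muscle markers summed to 82.3 CPM in vehicle mouse 4 and to at most 0.623 CPM in the other 7 libraries. The part of these cells in the results was not tested, and in bulk tissue fewer cells of a type cannot be told apart from less RNA per cell.

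ISOGK mouse 1 stood apart from the other 3 ISOGK mice in the clock genes. Its level lay within the range of the vehicle mice for 8 of the 10 genes, whereas each of ISOGK mice 2, 3 and 4 lay within that range for 2 of the 10. Over all tested genes the corresponding shares were 48.7%, 37.5%, 45.4% and 33.1% for ISOGK mice 1 to 4. It lay outside the vehicle range in 3 genes picked after their values were seen, all of them called between the groups and without overlap, so they are examples only and say nothing of other genes. *Ehhadh*, which encodes a peroxisomal enzyme of fatty acid oxidation, was at 1726 CPM in ISOGK mouse 1, where the whole ISOGK group spanned 1629 to 2053 CPM and the vehicle mice 267 to 336 CPM. *Cyp2b9*, a cytochrome P450 gene, was at 0.245 CPM in that mouse and at 9.97 to 19.3 CPM with vehicle, and *Srebf1*, which encodes the lipogenic regulator SREBP1, was at 20.6 CPM against 47.7 to 81.5 CPM. Fold changes of the 10 clock genes and of the D-box genes, and counts over gene lists, are therefore given with all 8 mice and without this mouse. It was singled out by the clock genes themselves, so the values without it describe the other 7 mice and are no independent evidence of an effect of ISOGK.

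**Figure D1:**
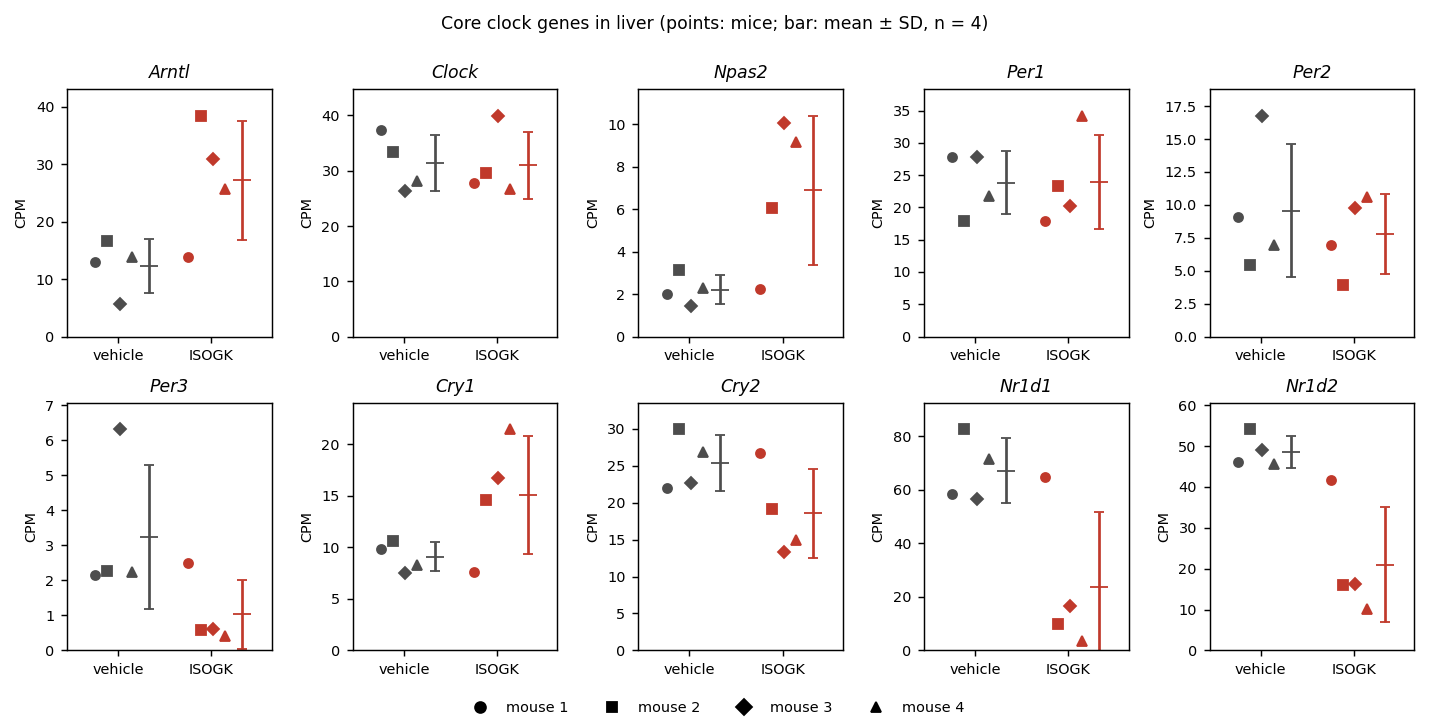
CPM (vertical axes, starting at 0) of the 10 clock genes in each mouse, with vehicle in grey and ISOGK in red, symbols numbering the mice within a group, and bars showing mean ± SD with n = 4 (bars that would pass below 0 are cut there). ISOGK mouse 1 (red circle) sits among or beside the vehicle mice for *Arntl*, *Npas2*, *Per3*, *Cry1*, *Cry2* and *Nr1d1*, while the other 3 ISOGK mice lie above or below them.

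The first question was whether clock gene levels differed between ISOGK and vehicle, with the quasi-likelihood test of edgeR and p-values adjusted over all tested genes. With all 8 mice, 0 of the 10 genes passed an adjusted p under 0.05 in either direction, while 4.11% of all tested genes were called higher and 3.44% lower with ISOGK. At the further requirement of an absolute log2 fold change over 1, 1.63% of all genes passed and 0 of the 10 did. Unadjusted p-values were under 0.05 for 6 of the 10 genes, and for 2973 of the 12307 genes tested. The other tools gave calls with the same libraries. DESeq2 called *Npas2* and *Cry1* higher and *Per3* and *Nr1d2* lower, 4 of 10 against 11.9% of all genes it tested. The test of limma-voom called *Nr1d1* and *Nr1d2* lower, 2 of 10 against 7.09%. The median log2 fold change was 1.15 over the 3 activators, -0.45 over the 7 repressors and 0.00 over all tested genes. The labels number the mice without stating how they were housed or grouped, so p-values measure the spread between these samples.

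*Arntl* (chr7:113207465-113314126, GRCm38) encodes BMAL1, the shared partner of CLOCK and NPAS2. It was at 12.9, 16.6, 5.61 and 13.8 CPM in vehicle mice 1 to 4 and at 13.9, 38.4, 30.9 and 25.6 CPM in ISOGK mice 1 to 4. ISOGK mice 2, 3 and 4 were above every vehicle mouse, ISOGK mouse 1 was within the vehicle range, and vehicle mouse 3 was the lowest of all. The group means were 12.2 ± 4.68 and 27.2 ± 10.3 CPM (SD, n = 4), and the difference was 1.15 on the log2 scale with a standard error of 0.39 (edgeR adjusted p = 0.122). Without ISOGK mouse 1 the log2 fold change came to 1.37 (standard error 0.32, adjusted p = 0.0418).

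*Npas2* (chr1:39193731-39363236) encodes a paralog of CLOCK that can take its place beside BMAL1. Its levels were 2.01, 3.13, 1.44 and 2.28 CPM with vehicle and 2.26, 6.07, 10.1 and 9.17 CPM with ISOGK, from 37 to 178 counts per library. The same 3 ISOGK mice lay above all 4 vehicle mice, and vehicle mouse 3 was again the lowest. Its log2 fold change of 1.63 (standard error 0.43) was the largest positive value among the 10 genes, and its edgeR adjusted p of 0.0537 was the smallest of the 10. Without ISOGK mouse 1 it was 1.93 (standard error 0.26, adjusted p = 0.0019).

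*Clock* (chr5:76209868-76304792), whose product is a histone acetyltransferase as well as a transcription factor, showed no such separation. It was at 37.4, 33.4, 26.4 and 28.1 CPM with vehicle and at 27.7, 29.6, 39.98 and 26.8 CPM with ISOGK. The groups overlapped along most of their range, and ISOGK mouse 3 was the highest of the 8. A log2 fold change of -0.02 was fitted, with a 95% interval of -0.34 to 0.30 (adjusted p = 0.963), so a change of the size fitted for *Arntl* or *Npas2* lay outside that interval.

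The PER proteins form the repressor complex with CRY. *Per1* (chr11:69095217-69109960) was at 27.9, 17.9, 27.8 and 21.7 CPM with vehicle and at 17.9, 23.4, 20.2 and 34.2 CPM with ISOGK. The groups overlapped, and ISOGK mouse 4 was the highest of all. With a log2 fold change of 0.01 and a 95% interval of -0.46 to 0.47, no direction could be given, and the sign changed with the processing.

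*Per2* (chr1:91415982-91459324) was at 9.08, 5.46, 16.8 and 6.92 CPM with vehicle and at 6.92, 3.91, 9.78 and 10.6 CPM with ISOGK. Vehicle mouse 3 was the highest of the 8 and ISOGK mouse 2 the lowest, and the groups overlapped. The fitted log2 fold change of -0.30 had a 95% interval of -1.23 to 0.63, and without vehicle mouse 3 it was 0.13.

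*Per3* (chr4:151003652-151044665), the least abundant member of the *Per* family here, had a different pattern from *Per1* and *Per2*. It was at 2.16, 2.26, 6.31 and 2.23 CPM with vehicle and at 2.501, 0.581, 0.622 and 0.419 CPM with ISOGK. ISOGK mice 2, 3 and 4 were below every vehicle mouse with only 11, 11 and 8 counts, while ISOGK mouse 1 had 51 counts and the vehicle mice 43 to 162. edgeR gave -1.63 as the log2 fold change (standard error 0.60, adjusted p = 0.139), and -2.58 (standard error 0.49, adjusted p = 0.0108) without ISOGK mouse 1. Without vehicle mouse 3 it was -1.08 (adjusted p = 0.278). *Per3* was also the gene with a pair of D-box matches in its promoter window.

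The 2 cryptochrome genes differed in sign. *Cry1* (chr10:85131700-85185064), which encodes a strong repressor of BMAL1 with CLOCK, was at 9.84, 10.6, 7.52 and 8.31 CPM with vehicle and at 7.60, 14.6, 16.7 and 21.4 CPM with ISOGK. ISOGK mice 2, 3 and 4 exceeded all vehicle mice, and ISOGK mouse 1 lay near the bottom of the vehicle range. The difference on the log2 scale was 0.73 (standard error 0.27, adjusted p = 0.128), and 0.95 (standard error 0.17, adjusted p = 0.00631) without that mouse.

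*Cry2* (chr2:92403646-92434043), its paralog, was at 22.0, 29.9, 22.7 and 26.9 CPM with vehicle and at 26.7, 19.2, 13.3 and 14.98 CPM with ISOGK. The same 3 ISOGK mice were here below all vehicle mice. Its log2 fold change was -0.45 (standard error 0.20, adjusted p = 0.2), and -0.68 (standard error 0.15, adjusted p = 0.0216) without ISOGK mouse 1.

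*Nr1d1* (chr11:98767932-98775333) encodes REV-ERBα, a heme-binding nuclear receptor that lacks an activation function and represses its targets. It was at 58.3, 82.6, 56.6 and 71.3 CPM with vehicle and at 64.9, 9.87, 16.5 and 3.56 CPM with ISOGK, and raw counts ran from 68 in ISOGK mouse 4 to 2087 in vehicle mouse 2. The vehicle mice and ISOGK mouse 1 stood within one range, and the other 3 ISOGK mice lay far below it. The group means were 67.2 ± 12.2 and 23.7 ± 28.0 CPM (SD, n = 4), so the spread within the ISOGK group exceeded its mean. With 8 mice the log2 fold change was -1.497 (standard error 0.82, adjusted p = 0.323), and it was -2.76 (standard error 0.47, adjusted p = 0.0186) without ISOGK mouse 1. With all 8 mice limma-voom gave -2.23 (adjusted p = 0.0477) and DESeq2 gave -1.503 (adjusted p = 0.24). *Nr1d1* shares 263 exon bases, 9.67% of its exon length, with *Thra* on the opposite strand, and whether strand was used in counting is not given in the sources used here. *Thra*, which encodes a thyroid hormone receptor, had a log2 fold change of 0.40 (adjusted p = 0.196), opposite in sign to that of *Nr1d1*.

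*Nr1d2* (chr14:18204054-18239127) encodes REV-ERBβ, which acts alongside REV-ERBα. It was at 46.1, 54.1, 49.0 and 45.5 CPM with vehicle and at 41.6, 16.0, 16.2 and 10.2 CPM with ISOGK. It was the only one of the 10 genes whose groups did not overlap, against 15.3% of all tested genes, with ISOGK mouse 1 just below the lowest vehicle mouse. On the log2 scale the difference was -1.21 (standard error 0.40, adjusted p = 0.118), and -1.79 (standard error 0.16, adjusted p = 0.000203) without ISOGK mouse 1.

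**Figure D2:**
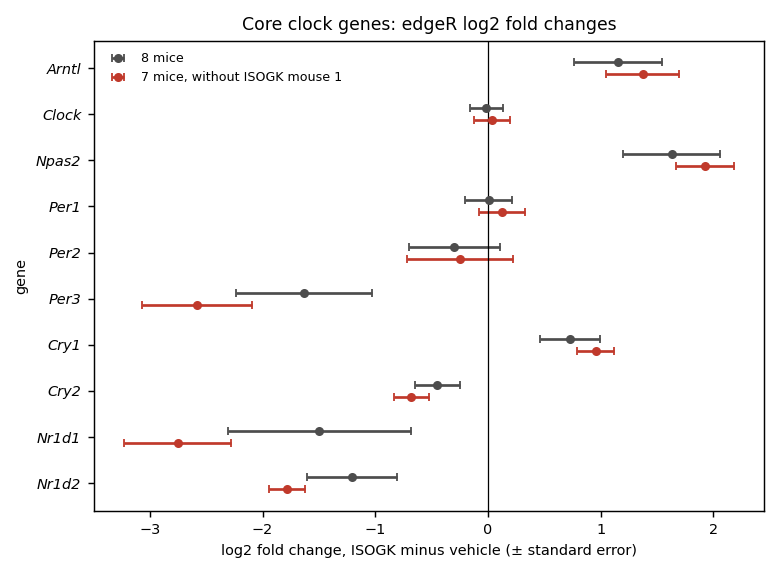
edgeR log2 fold change, ISOGK minus vehicle (horizontal axis), of each clock gene with its standard error, for all 8 mice (grey) and for the 7 mice without ISOGK mouse 1 (red). *Nr1d1* moves from -1.497 to -2.76 and *Per3* from -1.63 to -2.58, while *Clock*, *Per1* and *Per2* stay within 0.30 of 0 in both.

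Across the 10 genes, leaving out ISOGK mouse 1 gave 3 higher calls (*Arntl*, *Npas2* and *Cry1*) and 4 lower calls (*Per3*, *Cry2*, *Nr1d1* and *Nr1d2*), while 4.1% of all genes tested were called higher and 3.83% lower. In those 7 mice the groups did not overlap for 7 of the 10 clock genes, against 21.6% of all tested genes. The mouse left out was chosen for its place in these same 10 genes, so these shares cannot be compared as a test. None of the other 7 fits that left out a mouse called any of the 10. The variation within groups, fitted over both groups with ISOGK mouse 1 included, was high for several of these genes. It therefore includes the split within the ISOGK group. For *Nr1d1* the SD was 12.2 CPM on a mean of 67.2 CPM with vehicle and 28.0 on 23.7 CPM with ISOGK. For *Per3* it was 2.05 on 3.24 CPM and 0.98 on 1.03 CPM. The biological coefficient of variation that edgeR fitted was 0.77 for *Nr1d1*, above 99.7% of tested genes, and 0.561 for *Per3*, above 99.2%, whereas it was 0.154 for *Clock*, above 55.7%. The value common to all genes was 0.164. Ranked among the 500 tested genes nearest in level, *Nr1d1* was at percentile 100, *Per3* at 98.8 and *Clock* at 83.4.

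**Figure D3:**
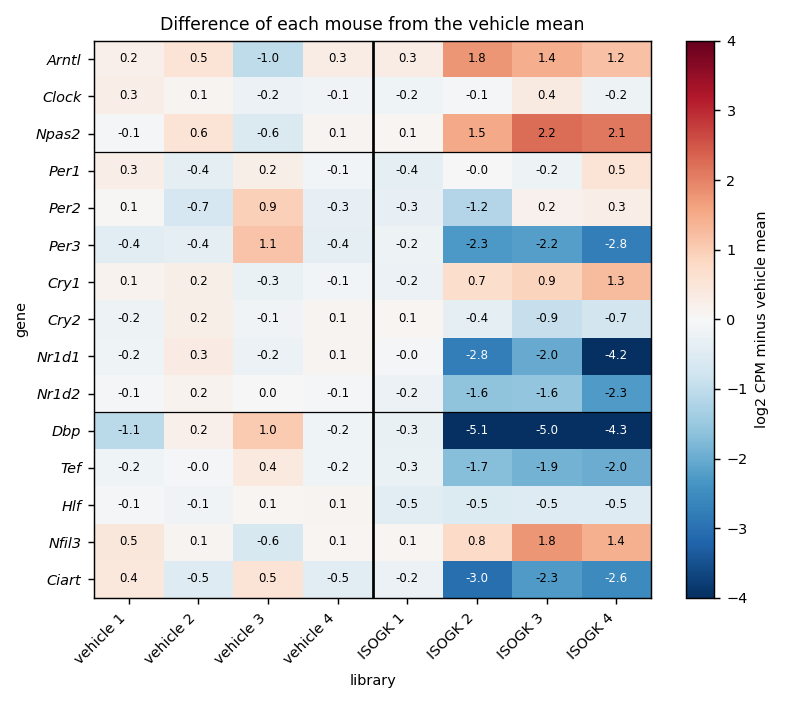
log2 CPM of each mouse minus the vehicle mean (color scale, cut at -4 and 4, with the value printed in each cell) for the 3 activators, the 7 repressors and 5 output genes (rows) in the 8 mice (columns). The column of ISOGK mouse 1 stays within 0.5 of the vehicle mean for all 15 genes. For *Hlf*, however, its -0.459 is below every vehicle mouse and close to the -0.505 to -0.533 of the other ISOGK mice. The columns of ISOGK mice 2 to 4 hold positive values for *Arntl*, *Npas2*, *Cry1* and *Nfil3*. They hold negative ones for *Per3*, *Cry2*, *Nr1d1*, *Nr1d2*, *Dbp*, *Tef*, *Hlf* and *Ciart*.

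Vehicle mice varied too. Vehicle mouse 3 had the lowest *Arntl*, *Npas2* and *Cry1* and the highest *Per2* and *Per3* of its group. It was at an extreme of the vehicle group for 7 of the 10 genes and vehicle mouse 2 for 8, compared with 46.8% and 45.1% of all tested genes for these mice, while vehicle mouse 4 was at an extreme for 1 of the 10.

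The balance of the 2 limbs was described in each mouse as the mean log2 CPM of the 3 activators minus that of the 7 repressors. It was -0.71, -0.44, -1.73 and -0.71 in vehicle mice 1 to 4 and -0.64, 1.20, 1.25 and 1.20 in ISOGK mice 1 to 4. ISOGK mice 2, 3 and 4 lay within a narrow band above 0, and ISOGK mouse 1 lay with the vehicle mice. The same was seen per unit of transcript length in the ratio of *Nr1d1* to *Arntl*. CPM per kilobase of *Nr1d1* was 5.11, 5.66, 11.5 and 5.87 times that of *Arntl* in vehicle mice and 5.31, 0.292, 0.606 and 0.158 times in ISOGK mice. The means over a limb hide genes that did not move with it. With all 8 mice the log2 fold change was -0.02 for *Clock*, 0.01 for *Per1* and 0.73 for the repressor *Cry1*.

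**Figure D4:**
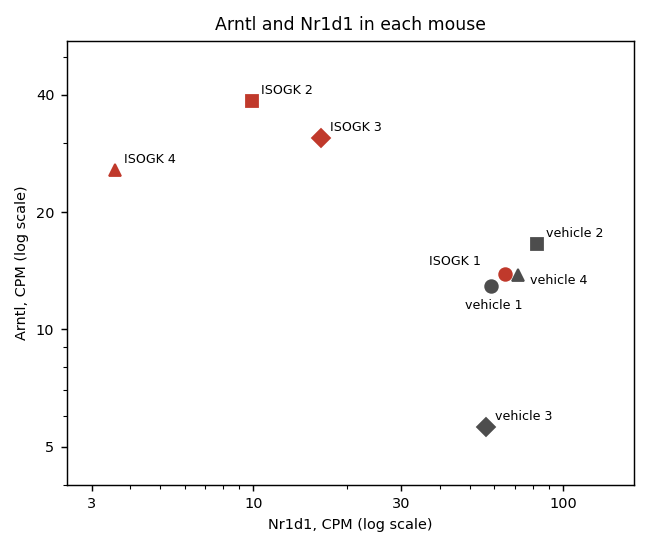
CPM of *Arntl* (vertical log axis) against CPM of *Nr1d1* (horizontal log axis), with 1 point per mouse, vehicle in grey and ISOGK in red. ISOGK mice 2, 3 and 4 sit at the upper left with 25.6 to 38.4 CPM of *Arntl* and 3.56 to 16.5 CPM of *Nr1d1*, and ISOGK mouse 1 sits among the vehicle mice at the right.

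On that per-kilobase scale, *Nr1d1* was the most abundant of the 10 transcripts in the vehicle livers (24.7 ± 4.48 CPM per kilobase, SD, n = 4), ahead of *Nr1d2* (10.4 ± 0.84) and *Cry2* (5.85 ± 0.861). These 3 steps, the last of them down to *Per1*, did not overlap between mice. *Per1* (4.23 ± 0.865), *Arntl* (3.96 ± 1.51), *Clock* (3.16 ± 0.508), *Cry1* (3.00 ± 0.469) and *Per2* (1.64 ± 0.864) followed, each overlapping its neighbor, with *Per3* (0.540 ± 0.341) and *Npas2* (0.522 ± 0.166) the lowest. In the ISOGK livers *Arntl* (8.80 ± 3.34) and *Nr1d1* (8.72 ± 10.3) had near-equal means, but without ISOGK mouse 1 these were 10.2 ± 2.09 and 3.67 ± 2.38 (SD, n = 3), and *Per3* (0.172 ± 0.164) was the lowest. Of the 9 steps in the ISOGK order, only those from *Clock* to *Npas2* and from *Per2* to *Per3* were free of overlap.

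Genes downstream of the clock were examined as a list of outputs, of which 15 of 16 were tested. With all 8 mice, 1 was called higher and 4 lower, against 4.11% and 3.44% of all tested genes, and the median log2 fold change was -0.53 (0.00 over all tested genes). Without ISOGK mouse 1, 2 were higher and 7 lower with a median of -1.24, and leaving out any one of the other mice gave 0 or 1 higher and 2 or 3 lower. *Hlf*, which encodes a D-box activator, was at 33.1, 31.7, 36.5 and 37.5 CPM with vehicle and at 25.2, 23.9, 24.4 and 24.2 CPM with ISOGK. Here ISOGK mouse 1 stood with its own group, and *Hlf* fell by 0.51 (log2, standard error 0.09, adjusted p = 0.00607). Without ISOGK mouse 1 the edgeR fall of *Hlf* was 0.52 (standard error 0.10, adjusted p = 0.0104). *Bhlhe40*, which encodes the E-box repressor DEC1, fell by 1.47 (adjusted p = 0.00221), and was at 33.4 CPM in ISOGK mouse 1 against 59.3 to 110.9 CPM with vehicle. Over all called genes, ISOGK mouse 1 lay within the vehicle range for only 1.6%. Its place in *Hlf* and *Bhlhe40* was therefore largely fixed by their being called. *Usp2*, which encodes a deubiquitinase, fell by 1.46 (adjusted p = 0.0388), and *Cyp2a5*, a cytochrome P450 gene controlled by D-box factors, by 1.18 (adjusted p = 0.0376), although its reads could be split with the closely related *Cyp2a4*. Leaving out 1 mouse ended the call of *Usp2* and that of *Cyp2a5* in 6 of 8 fits each. Both calls were also lost with the replicate block and with no filter beyond 1 count. *Nr1i3*, which encodes the nuclear receptor CAR, rose by 0.45 (adjusted p = 0.0415). Its call was lost in 6 of the 8 fits that left out a mouse (any vehicle mouse, ISOGK mouse 3 or ISOGK mouse 4). It was also lost with library size alone and in limma-voom without ISOGK mouse 1. The calls of *Hlf* and *Bhlhe40* held in all 18 alternatives.

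The other D-box genes followed the split seen in the core genes. *Dbp* was at 6.22, 14.8, 26.9 and 11.6 CPM with vehicle and at 10.5, 0.369, 0.396 and 0.681 CPM with ISOGK. ISOGK mouse 1 lay within the vehicle range and the other 3 ISOGK mice were below 1 CPM. On the log2 scale the difference was -2.28 (standard error 1.08, adjusted p = 0.256), and -4.93 (adjusted p = 0.00588) without ISOGK mouse 1, a value that rests on 7, 7 and 13 counts in the remaining ISOGK mice. *Tef* was at 78.3 to 115.8 CPM with vehicle, at 72.8 CPM in ISOGK mouse 1 and at 22.3 to 27.0 CPM in the others (log2 fold change -1.29, adjusted p = 0.106, and -1.88, adjusted p = 0.000116, without ISOGK mouse 1). *Nfil3*, the D-box repressor, ran the opposite way, with 9.97 to 21.3 CPM with vehicle, 16.2 CPM in ISOGK mouse 1 and 26.5 to 52.1 CPM in the others (log2 fold change 1.09, adjusted p = 0.13, and 1.33, adjusted p = 0.0293, without ISOGK mouse 1). *Ciart*, which encodes a further repressor of the CLOCK and BMAL1 pair, had a log2 fold change of -1.62 (adjusted p = 0.0957), and of -2.65 (adjusted p = 0.00404) without ISOGK mouse 1, with 5, 8 and 7 counts in ISOGK mice 2 to 4.

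**Figure D5:**
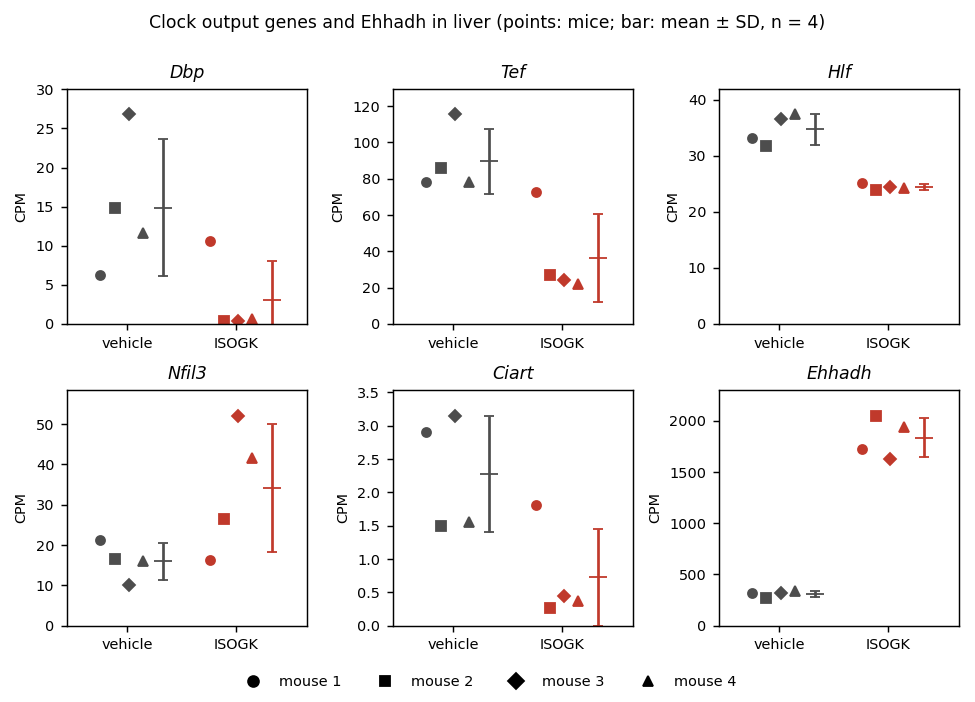
CPM (vertical axes, starting at 0) of 5 clock output genes and of *Ehhadh* in each mouse, drawn as in the plot of the 10 clock genes, with mean ± SD and n = 4 (bars that would pass below 0 are cut there). ISOGK mouse 1 is at 10.5 CPM of *Dbp*, among the vehicle mice, but at 1726 CPM of *Ehhadh* and 25.2 CPM of *Hlf*, among the ISOGK mice. *Ehhadh* and *Hlf* were called between the groups, so they are examples only.

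Of a list of 21 clock regulators (kinases, ubiquitin ligases, ROR receptors and others), 20 were tested, 0 were called higher and 2 lower (3.44% of all tested genes were lower), and the median log2 fold change was -0.08. The lower calls were 3 without ISOGK mouse 1, with a median of -0.04, and 1 in 7 alternatives. Those called with all 8 mice, *Bhlhe40* and *Usp2*, are also in the list of outputs. Of 8 genes known to respond to REV-ERB and ROR receptors, 2 were called higher and 0 lower, with a median of 0.75, where 4.11% of all tested genes were higher. Without ISOGK mouse 1 the count was 3 with a median of 0.73, and over all alternatives it was 2 to 4. *Insig2*, which encodes a retention factor for SREBP, rose by 1.48 (adjusted p = 0.00178) and *Plin2*, which encodes a lipid droplet coat protein, by 1.56 (adjusted p = 0.00163). ISOGK mouse 1 was above all vehicle mice in both, at 449.5 CPM of *Insig2* against 125.9 to 234.8 CPM and at 682.5 CPM of *Plin2* against 233.1 to 371.6 CPM. Both genes were named because they were called, and ISOGK mouse 1 lay within the vehicle range for only 1.6% of all called genes. Its place in them was therefore largely fixed by that choice and makes no contrast with the core genes. Of 7 genes that respond to glucocorticoids, hormones that also follow a daily rhythm, edgeR called 0 in either direction with a median of 0.09 and 1 at an unadjusted p under 0.05. DESeq2, edgeR with the replicate block and edgeR without vehicle mouse 1 each called 1 higher. Without ISOGK mouse 1 edgeR again called 0, with a median of -0.03 and 3 at an unadjusted p under 0.05, and limma-voom called 1 lower.

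The genes whose levels most resembled those of *Arntl* and *Nr1d1* over the 8 libraries were found by Pearson's r of log2 CPM, as a description in which the difference between the groups has a part. *Lgalsl* (r = 0.98), *Clpx*, *Rnf144a* and *Asap2* were among the most alike to *Arntl*, and *Zfp992* (r = -0.98), *Hikeshi*, *Usp2*, *Efhd2* and *Abcb10* the most opposed. *Zcchc24* (r = 0.99), *D5Ertd579e*, *Pde4b* and *Zmiz1* were among the most alike to *Nr1d1*, and *Tmbim4* (r = -0.99), *Itga7*, *Plekha8*, *Mbd2* and *Hspa1a* the most opposed.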

How the data were processed

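Liver RNA of 8 mice was sequenced, 1 library per mouse. The authors aligned reads with HISAT2 and counted them per gene with StringTie, and they deposited raw, whole-number counts for each gene symbol. The submitters' notes name mm10. The DMSO columns were assigned to the vehicle mice because the study's scheme gives DMSO as its vehicle.

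Counts were filtered (filterByExpr, minimum count 10, minimum total 15), scaled by TMM and tested with the robust quasi-likelihood test of edgeR 4.0.16 in R 4.3.3, with Benjamini-Hochberg adjustment over 12307 of 16540 genes. A call is an adjusted p under 0.05. CPM use TMM factors. Log2 CPM use a prior count of 2 for the correlations and for the balance of activators and repressors. Depth gives counting error only. Lengths and coordinates are from GENCODE M21. The tests were tested on simulated data. Alternatives were DESeq2 1.42.0, limma-voom (limma 3.58.1), other scalings and filters, a replicate block, no robust option and each mouse left out. DESeq2 and limma-voom without ISOGK mouse 1 were added after seeing the data.

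The genes, lists and tests were chosen with earlier results of these data known. Named genes were the 10 clock genes, up to 6 called genes of each list, *Dbp*, *Tef*, *Hlf*, *Nfil3* and *Ciart*, the 5 genes most like and most unlike *Arntl* and *Nr1d1*, and a few chosen after their values were seen. A few that the rule names are left out here.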

Additional observations from a re-analysis of the deposited data

Results flagged for a closer look

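The 10 clock genes and the 11 genes named from the lists were examined in each group for a mouse far from its 3 fellows, by Dixon's ratio of the gap to the range at its 95% critical value. Of 42 groups, 6 passed, where about 1 in 20 (2.1 of 42) would pass if the groups were independent. They share the same mice, and the genes were chosen with earlier results known. The count is therefore a description and no test of an excess. *Per3* was at 6.308 CPM in vehicle mouse 3 and at 2.158 to 2.255 CPM in the other vehicle mice. In the ISOGK group, *Per3* was at 2.501 CPM in mouse 1 and at 0.4191 to 0.622 CPM in the others. *Dbp* was at 10.55 CPM in ISOGK mouse 1 against 0.3694 to 0.6811 CPM, *Tef* at 72.79 CPM against 22.27 to 26.97 CPM, and *Ciart* at 1.815 CPM against 0.2639 to 0.4523 CPM. *Plin2* was at 233.1 CPM in vehicle mouse 2 and at 349.2 to 371.6 CPM in the other vehicle mice. In 4 of the 6 the mouse was ISOGK mouse 1, and in each of those it was the highest of its group.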

How the results depend on the processing

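The count of clock genes called depended on the test and on 1 mouse. DESeq2 called 2 higher and 2 lower (3 with an absolute log2 fold change over 1), limma-voom 0 higher and 2 lower (2 over 1), and edgeR without the robust option 1 higher (1 over 1). With a mouse left out, edgeR called 0 to 3 higher, 0 to 4 lower and 0 to 5 over 1, the upper values all without ISOGK mouse 1. Without that mouse DESeq2 and limma-voom each called 3 higher, 4 lower and 5 over 1. Over all genes, DESeq2 called 765 higher and 670 lower (717 lower without ISOGK mouse 1), library size alone 262 and 804, and the fits without a mouse 219 to 712 higher and 160 to 523 lower. Library size alone moved the median gene by -0.13 on the log2 scale. The log2 fold change of *Clock* was positive in 7 alternatives, with 0.031 by DESeq2 and 0.027 by limma-voom without ISOGK mouse 1 and a range of -0.17 to 0.079 when a mouse was left out. That of *Per1* was -0.011 by limma-voom, -0.012 with the replicate block, -0.14 when scaled by library size only and -0.22 to 0.12 with a mouse left out, and that of *Per2* was 0.13 without vehicle mouse 3, in a range of -0.49 to 0.13. The other 7 clock genes kept their direction in every alternative in which they were tested. *Per3* was not testable where every library needed 10 counts. The causes were not tested, and fits that left out a mouse also had fewer mice. The labels do not say whether equal replicate numbers pair the mice. Deviations of same-numbered mice correlated at -0.014 to 0.085, which does not settle it. A fit with the numbers as a replicate block called 0 clock genes in either direction, 411 genes higher and 416 lower. Counts of 5 to 13 limit the precision of *Per3*, *Dbp* and *Ciart* in ISOGK mice 2 to 4.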
